A study of Mus musculus with 8 samples.

Results

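The 38 genes described here encode carriers of amino acids and small peptides, or the subunits that bring such carriers to the cell surface. Their members were every probe set annotated with exactly 1 gene symbol, that symbol being one of the 38, which gave 87 probe sets of the 45101 on the array and 38 of the 18194 genes that have such a probe set. The samples were small intestines of mouse fetuses at 18.5 days post coitum, shortly before birth, with total RNA of each hybridised to 1 Affymetrix MOE430 2.0 array. The comparison set 4 knockout intestines against 4 wild-type intestines, the gene removed being Plagl2, whose product is a zinc finger protein of the PLAG family that binds DNA. The labels give no strain, sex, litter or targeting allele, and do not say whether a sample pooled several fetuses, so the p-values speak only for the spread among these 8 samples, which may be technical. All 8 extraction protocols mention wild-type tissue, although titles, source names and the series design name 4 of the samples as knockouts.

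Dietary protein reaches the intestinal epithelium as free amino acids and as short peptides. Carriers of the apical brush border take them up, driven by sodium, protons or exchange, and carriers of the basolateral membrane pass them to the blood. Several carriers are pairs, in which a light chain of the Slc7 family moves the amino acid and a heavy chain of the Slc3 family brings it to the membrane. In the fetus the lumen holds swallowed amniotic fluid, and the epithelium also digests protein it has taken up whole in lysosomes, whose membranes have amino acid exporters of their own. Membrane sides and substrate classes given below are textbook assignments for absorptive epithelium, several of them known mainly from human or rodent kidney and adult gut, and 14 of the 38 genes were assigned to no side.

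Values are linear signal intensities that the authors had brought to 1 mean per array. Each fold change puts knockout over wild-type, as a difference of log2(signal + 16), with its standard error (SE) from limma's moderated fit across the probe sets tested. A gene counts as called where limma's two-sided p, adjusted by Benjamini and Hochberg's method, was under 0.05. The added 16 makes a fold change smaller than the ratio of raw signals where a group is dim. Where a gene had several tested probe sets, the brightest on average stood for it. Of the 38 genes, 35 passed the filter on low signal, and Slc1a2, Slc1a3 and Slc7a11, which encode carriers of acidic amino acids and cystine, did not, with no signal above 41 in any array. Signals of different probe sets depend on their probes and are not set against each other. In whole tissue, fewer cells of a type and less RNA per cell cannot be told apart.

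Of the 35 genes tested, 12 were lower and 2 higher in knockout intestine. The share called was 40%, against 15.1% of all 12838 genes tested. For the lower direction it was 34.3% of the transporter genes, against 8.5% of all genes, and for the higher direction 5.71%, against 6.6% of all genes. The median log2 fold change was -0.16 over the transporter genes and 0.03 over all genes tested. In 10 of the transporter genes every knockout signal lay below every wild-type signal and in 3 above, a separation that 11.1% of all genes showed downward and 8.88% upward, or 19.9% in either direction. Among single probe sets over the whole array, 6.7% were called as lower and 5.28% as higher (12% in all). The lower genes were the Slc38 family members Slc38a3, Slc38a6, Slc38a7 and Slc38a1, both subunits of the brush border carrier of basic amino acids (Slc3a1 and Slc7a9), the peptide carrier gene Slc15a2 and the neutral carrier genes Slc6a19, Slc43a2 and Slc7a5, with Slc7a4 and Slc43a3. The higher genes were Slc6a20a and Slc1a1.

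**Figure D1:**
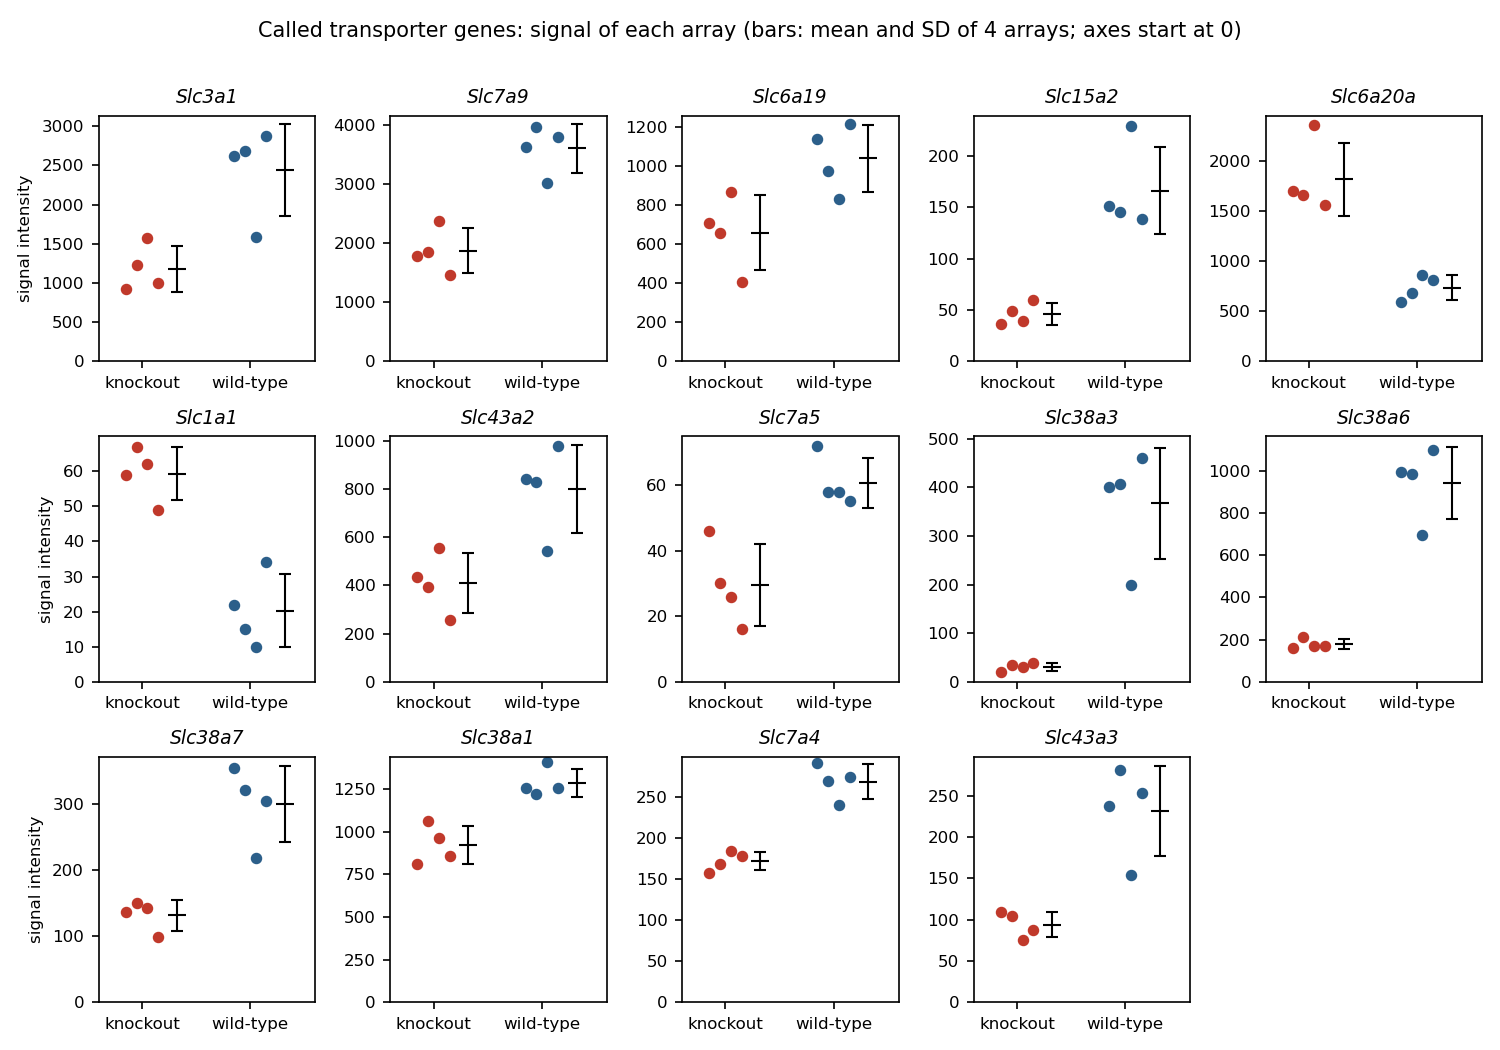
Signal intensity (linear axes from 0) of the 14 called transporter genes in each of 4 knockout (red) and 4 wild-type (blue) arrays, with the mean and SD of each group beside the points. Knockout points lie above all wild-type points for Slc6a20a and Slc1a1, below them for 10 genes, and overlap with them for Slc6a19 and Slc43a2.

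Promoter sequences of 4 genes are shown because these genes carry the changes in both directions and, for Slc3a1 and Slc7a9, encode both subunits of a carrier. They are RefSeq windows of build GRCm38.p6, from 250 bases before to 50 after the annotated start, 5′ to 3′ on the gene's strand. Capitals mark matches to a PLAG-type pattern, GAGGC or GGGGC followed after 6 to 8 bases by GGG, searched on both strands. Slc38a6 (chr12:73286598-73286897, plus strand), the gene with the smallest adjusted p of the 38, had 1 match, on the opposite strand, beginning 16 bases before the start.
Slc38a6: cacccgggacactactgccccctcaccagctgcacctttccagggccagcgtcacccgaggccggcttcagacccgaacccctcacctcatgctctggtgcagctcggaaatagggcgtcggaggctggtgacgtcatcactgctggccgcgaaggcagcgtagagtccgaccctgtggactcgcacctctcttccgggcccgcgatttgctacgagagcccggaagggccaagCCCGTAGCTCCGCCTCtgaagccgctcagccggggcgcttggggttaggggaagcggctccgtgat
Slc6a20a (chr9:123678783-123679082, minus strand), which rose, had 2 matches, beginning 110 and 85 bases before the start and not overlapping each other.
Slc6a20a: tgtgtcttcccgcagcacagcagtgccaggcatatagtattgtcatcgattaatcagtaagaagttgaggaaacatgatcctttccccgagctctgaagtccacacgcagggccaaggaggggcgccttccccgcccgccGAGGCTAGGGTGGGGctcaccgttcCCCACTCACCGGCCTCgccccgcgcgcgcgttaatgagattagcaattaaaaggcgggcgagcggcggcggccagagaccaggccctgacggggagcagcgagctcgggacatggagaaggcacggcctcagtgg
Slc3a1 (chr17:85028097-85028396, plus strand) and the more upstream of 2 overlapping windows of Slc7a9 (chr7:35448842-35449141, plus strand) had no match.
Slc3a1: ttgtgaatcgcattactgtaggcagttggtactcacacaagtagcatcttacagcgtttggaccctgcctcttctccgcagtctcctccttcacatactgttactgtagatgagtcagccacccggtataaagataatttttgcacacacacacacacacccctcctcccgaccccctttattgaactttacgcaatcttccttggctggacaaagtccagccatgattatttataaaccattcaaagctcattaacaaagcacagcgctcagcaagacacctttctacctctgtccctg
Slc7a9: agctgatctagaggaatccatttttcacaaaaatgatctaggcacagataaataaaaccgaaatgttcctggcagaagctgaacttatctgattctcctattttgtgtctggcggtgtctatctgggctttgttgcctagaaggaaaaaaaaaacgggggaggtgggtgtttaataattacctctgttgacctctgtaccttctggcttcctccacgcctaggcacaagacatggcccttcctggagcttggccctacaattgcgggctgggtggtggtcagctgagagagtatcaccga

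The pattern was common. It occurred in 22.7% of all 32851 promoter windows, and in 10 of the 40 windows found for 29 of the 38 transporter genes. Of the 9 called genes with a window, 2 held it, and these were Slc38a6 and Slc6a20a. An element of the ATF4 type, TGATGNAA, which marks many genes induced by amino acid shortage, occurred in 3.97% of all windows, in 4 windows of 3 transporter genes and in none of the 9 called genes. The E-box TCACGTG occurred in 3.77% of all windows and in 2 transporter genes, of which Slc38a7 was called. Neither of these was in the 4 windows printed. A match is a string of letters and not a measured site.

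Apical carriers went both ways. Of 11 genes tested, 4 were lower and 2 higher, and their median log2 fold change was -0.23. Over all genes tested, 8.5% were lower and 6.6% higher. Slc3a1 encodes rBAT, the heavy chain of the brush border exchanger for basic amino acids and cystine, which is mutated in human cystinuria. Its signal was 926, 1224, 1569 and 1000 in the knockout arrays, against 2623, 2685, 1585 and 2876 in the wild-type arrays. All knockout values lay below all wild-type values, but the third wild-type array (1585) was next to the highest knockout (1569). The means were 1180 ± 289 in knockout and 2442 ± 582 in wild-type intestine (SD, n = 4), a log2 fold change of -1.03 ± 0.20 SE (adjusted p = 0.00473).

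Slc7a9 encodes b0,+AT, the light chain that pairs with rBAT. Its signal was 1785, 1862, 2383 and 1462 in knockout and 3635, 3979, 3018 and 3809 in wild-type arrays, with no overlap. It fell to 1873 ± 382 in knockout intestine, against 3610 ± 419 in wild-type (SD, n = 4), and the log2 fold change of -0.95 ± 0.14 SE (adjusted p = 0.000654) was close to that of its partner. The call of Slc7a9 was kept under all 21 alternative settings, and that of Slc3a1 ended under 1 of them, which adjusted for the ratio of 3′ to 5′ control signals (log2 fold change -1.15, adjusted p = 0.0608).

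Slc6a19 encodes B0AT1, the main sodium-driven carrier of neutral amino acids in the brush border, mutated in human Hartnup disorder. The signal was 708, 654, 867 and 406 in knockout arrays, against 1137, 974, 830 and 1214 in wild-type arrays. The groups overlapped, since the third knockout was above the third wild-type. The log2 fold change was -0.68 ± 0.20 SE (adjusted p = 0.0461), and a second probe set had -0.71 ± 0.22 and was not called (adjusted p = 0.0631). This call was fragile. It ended without knockout replicate 1, 2 or 4 or wild-type replicate 1, 2 or 4 (adjusted p = 0.0607 to 0.129), and with the replicate block (0.129), no filter (0.0718), an offset of 1 (0.0516), no intensity trend (0.0929), the 3′ to 5′ covariate (0.0792) or the mean of both probe sets (0.0559). Without knockout replicate 4 its log2 fold change was -0.47. Cltrn, which encodes collectrin, a membrane protein that brings B0AT1 to the surface in mouse kidney, fell with it, giving 19, 33, 19 and 39 in knockout and 120, 142, 171 and 141 in wild-type arrays (log2 fold change -1.89 ± 0.19 SE, adjusted p = 4.52e-05).

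The rise of Slc6a20a ran against these. It encodes a sodium-driven carrier of proline and other imino acids (SIT1 in the human nomenclature). Its signal was 1701, 1660, 2366 and 1562 in the knockout arrays, against 592, 685, 864 and 816 in the wild-type arrays, so that the lowest knockout was well above the highest wild-type. The means of 1822 ± 367 in knockout and 739.2 ± 124 in wild-type intestine (SD, n = 4) gave a log2 fold change of 1.28 ± 0.15 SE (adjusted p = 0.000147), and the call held under all 21 alternatives. Slc6a20b, its close paralogue in the mouse, gave 84, 63, 93 and 29 in knockout and 2, 26, 14 and 18 in wild-type arrays (1.41 ± 0.32 SE, adjusted p = 0.0134). The wild-type mean of 15 lay below the level of the filter, so that Slc6a20b was tested because of its signal in knockouts, and its call adds no support to that of Slc6a20a. Transcripts of close paralogues may bind the same probes, and how far each probe set reads the other gene was not tested.

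Slc1a1 encodes EAAT3, the apical carrier of glutamate and aspartate, and was the one acidic carrier bright enough to be tested. The signal of its representative probe set was 59, 67, 62 and 49 in knockout arrays, against 22, 15, 10 and 34 in wild-type arrays, with no overlap. The log2 fold change was 1.09 ± 0.22 SE (adjusted p = 0.00697). Since the wild-type mean of 20.25 lay below the level of the filter (about 23.0), the probe set was tested because of its signal in knockouts, and the fold change depended on the offset (1.63 with an offset of 1 and 0.55 with 64). The other tested probe set overlapped between the groups, with 39, 83, 41 and 43 in knockout and 47, 18, 27 and 3 in wild-type arrays, and was not called (0.85 ± 0.34 SE, adjusted p = 0.138). Adjusting for Xist signal ended the call (adjusted p = 0.0657), as did keeping only the 6 arrays that lacked it (0.085) and the 3′ to 5′ covariate (0.191).

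Of the peptide carriers, Slc15a1 encodes PepT1, the proton-driven carrier of the intestinal brush border, and Slc15a2 encodes PepT2, best known from kidney, lung and brain. Slc15a1 gave 590, 509, 737 and 535 in knockout and 494, 500, 359 and 573 in wild-type arrays. The groups overlapped and the gene was not called, with a log2 fold change of 0.30 and a 95% confidence interval from -0.04 to 0.63 (adjusted p = 0.255). Slc15a2 gave 36, 49, 39 and 60 in knockout and 151, 145, 229 and 139 in wild-type arrays by its brightest probe set, with no overlap. Its log2 fold change was -1.54 ± 0.18 SE (adjusted p = 0.000178).

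The probe sets of Slc15a2 did not give 1 picture. By the second the signal was 47, 84, 47 and 42 in knockout and 44, 47, 243 and 48 in wild-type arrays, and by the third it was 38, 81, 45 and 40 in knockout and 52, 44, 273 and 26 in wild-type arrays. In both, 3 of the 4 wild-type arrays lay within or below the range of the knockouts and the third wild-type array stood far above. Neither of them was called (adjusted p = 0.635 and 0.684), and with the mean of all 3 probe sets the gene was not called (log2 fold change -0.76, adjusted p = 0.187). The fall of Slc15a2 therefore rests on 1 of 3 probe sets.

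**Figure D2:**
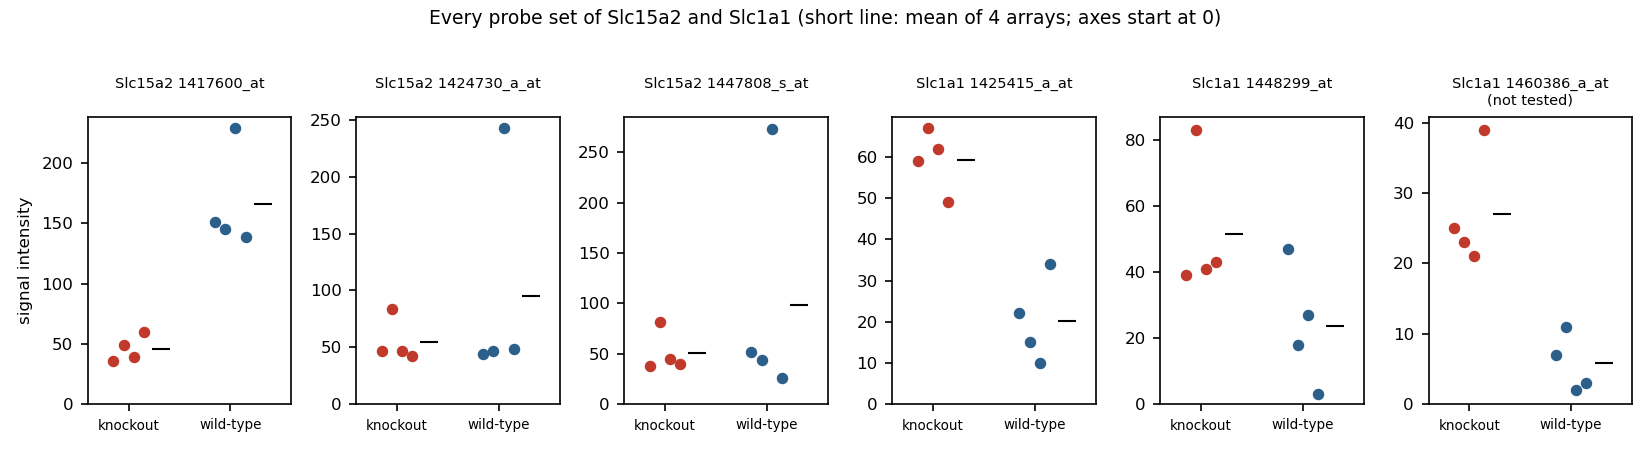
Signal intensity (linear axes from 0) of every probe set of Slc15a2 and Slc1a1 in 4 knockout (red) and 4 wild-type (blue) arrays, with the group mean as a short line. Slc15a2 separates the groups by its brightest probe set and not by the others, where the third wild-type array (243 and 273) stands above all other arrays.

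The remaining apical genes were not called. Slc1a5, the neutral amino acid exchanger ASCT2, had a log2 fold change of -0.13 (95% confidence interval -0.59 to 0.33). Slc6a6, which encodes the taurine carrier, had -0.26 (-0.56 to 0.04), Slc36a1, a proton-coupled carrier of small neutral amino acids, had -0.23 (-0.65 to 0.18), and Slc6a14, a carrier of neutral and basic amino acids counted here as neutral, had 0.15 (-0.30 to 0.61). Slc6a14 was dim, with signals of 18 to 37. Slc36a1 was called as lower in 1 alternative, without wild-type replicate 3 and knockout replicate 4 together (adjusted p = 0.0389).

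Among 10 basolateral genes tested, 2 were lower and none was higher by limma at adjusted p under 0.05, with a median log2 fold change of -0.18. The shares over all genes tested were 8.5% lower and 6.6% higher. Slc43a2 encodes LAT4, which lets branched-chain and aromatic amino acids leave the cell. Its signal was 435, 395, 555 and 255 in knockout and 843, 827, 544 and 979 in wild-type arrays, the third wild-type lying just below the third knockout. The log2 fold change was -0.95 ± 0.22 SE (adjusted p = 0.0146), and a second probe set separated the groups, with 196, 150, 209 and 175 in knockout and 317, 305, 304 and 359 in wild-type arrays (-0.77 ± 0.12 SE, adjusted p = 0.00149). The call by the first probe set ended without wild-type replicate 1 or 4 (adjusted p = 0.0504 for each) and with the replicate block (0.072).

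Slc7a5 encodes LAT1, the exchanger of large neutral amino acids. It was dim, with 46, 30, 26 and 16 in knockout and 72, 58, 58 and 55 in wild-type arrays, and no overlap. Its log2 fold change was -0.79 ± 0.21 SE (adjusted p = 0.031). The call ended without knockout replicate 2, 3 or 4 or wild-type replicate 1, 2 or 4 (adjusted p = 0.0568 to 0.0968). It also ended without knockout replicate 4 and wild-type replicate 3 together (0.0746) and without filter (0.0712). The same held when Xist signal was adjusted for (0.138) and among the 6 arrays lacking it (0.122). With the stricter filter, which left out the lowest 60%, the gene was not tested.

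The heavy chain and the exit exchangers of basic amino acids were not called. Slc3a2 encodes 4F2hc, the heavy chain shared by the basolateral exchangers. Its signal was 1575, 1412, 1564 and 1090 in knockout and 1737, 1841, 1505 and 2145 in wild-type arrays, overlapping, with a log2 fold change of -0.36 (95% confidence interval -0.65 to -0.06, adjusted p = 0.116). Without wild-type replicate 3 it was called as lower (-0.44, adjusted p = 0.0452), and likewise with knockout replicate 4 left out too (-0.32, adjusted p = 0.0446). Its light chain Slc7a7, y+LAT1, which passes lysine and arginine to the blood and is mutated in human lysinuric protein intolerance, gave 1124, 1291, 1591 and 868 in knockout and 1397, 1527, 1108 and 1702 in wild-type arrays. The groups overlapped, and the log2 fold change was -0.25 (-0.63 to 0.13, adjusted p = 0.415).

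The basic carrier gene Slc7a1, CAT1, gave 471, 457, 395 and 473 in knockout and 344, 364, 400 and 256 in wild-type arrays (log2 fold change 0.40, 0.10 to 0.69, adjusted p = 0.0859). It was called as higher without wild-type replicate 3 (0.47, adjusted p = 0.0343). Both Slc3a2 and Slc7a1 were also called with array weights and all 8 arrays in the fit (adjusted p = 0.0433 and 0.0255). Leaving out wild-type replicate 3 raised the calls over the whole array too, to 2082 probe sets higher and 2169 lower, against 1427 and 1811 with all arrays.

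Slc7a8, the LAT2 light chain, gave 464, 308, 400 and 226 in knockout and 442, 462, 350 and 503 in wild-type arrays (log2 fold change -0.35, -0.78 to 0.07, adjusted p = 0.288). Slc16a10, the aromatic amino acid carrier TAT1, gave 935, 811, 1192 and 669 in knockout and 751, 765, 833 and 791 in wild-type arrays (0.17, -0.16 to 0.49, adjusted p = 0.529). In both genes the knockouts spread wider than the wild-types, and the ranges overlapped. Slc6a9, the glycine carrier GlyT1, lay at 134 to 152 in knockout and 109 to 133 in wild-type arrays, separated but with a log2 fold change of only 0.25 (adjusted p = 0.209). Slc38a2, the amino acid-responsive carrier SNAT2, had 0.18 (-0.14 to 0.50), and Slc7a6, y+LAT2, had -0.12 (-0.50 to 0.26).

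**Figure D3:**
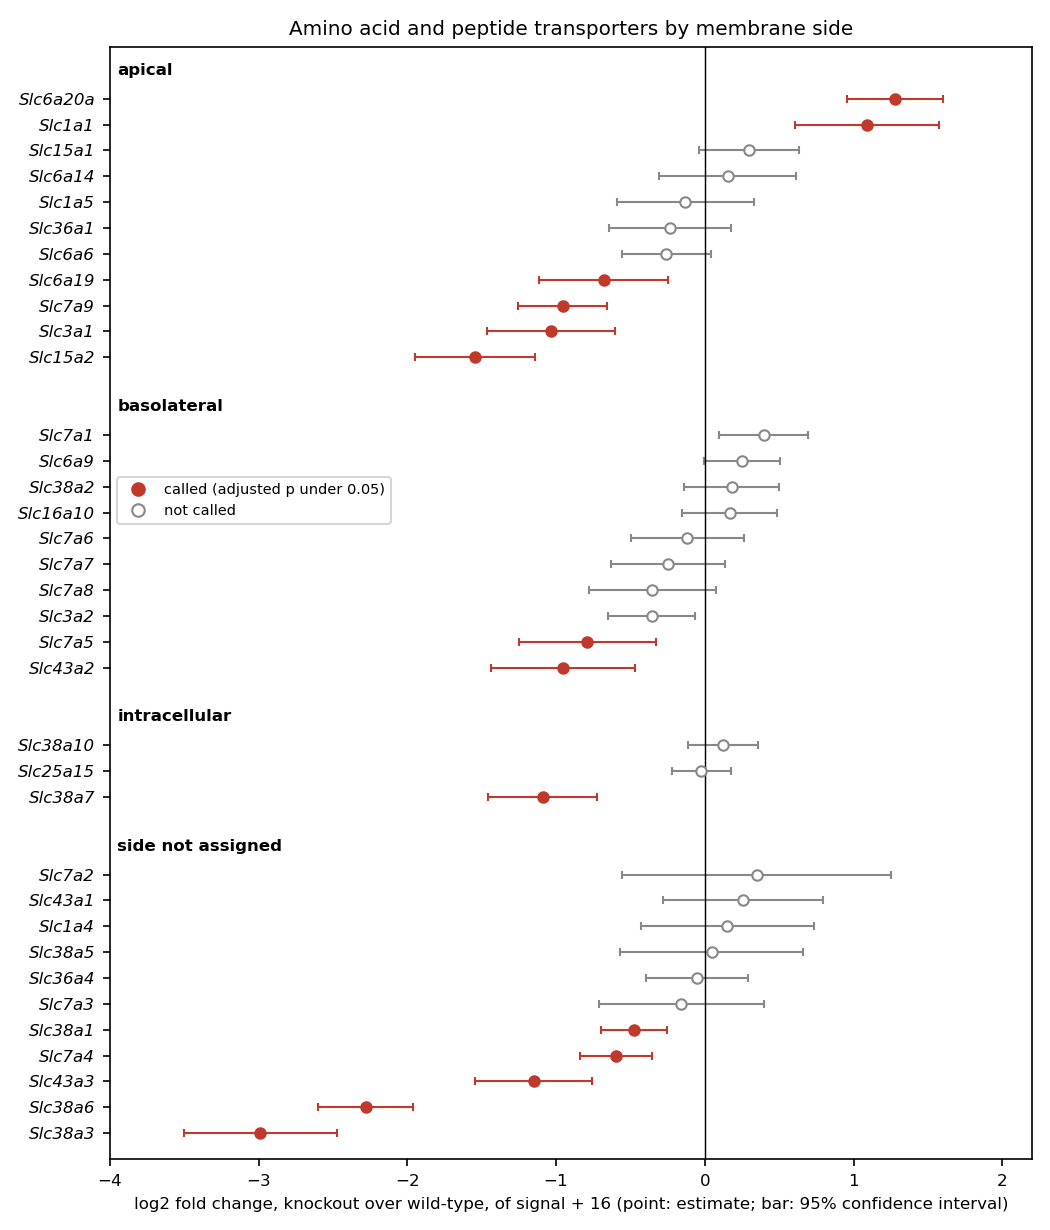
Log2 fold change of signal + 16, knockout over wild-type, with the 95% confidence interval, for the 35 transporter genes tested, grouped by membrane side. Called genes are filled red. Apical genes run from -1.54 (Slc15a2) to 1.28 (Slc6a20a), and the lowest values belong to Slc38a3 (-2.99) and Slc38a6 (-2.28), which were assigned to no side.

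The widest changes were in the Slc38 family of sodium-coupled carriers of glutamine and other small neutral amino acids. Slc38a3 encodes SNAT3, a system N carrier of glutamine, histidine and asparagine known from liver, kidney and brain. Its signal was 20, 34, 30 and 39 in the knockout arrays, against 400, 407, 200 and 460 in the wild-type arrays. Every knockout lay near the level of the filter, and the third wild-type was the lowest of its group. The means were 30.75 ± 8.06 in knockout and 366.8 ± 114 in wild-type intestine (SD, n = 4), with a log2 fold change of -2.99 ± 0.24 SE (adjusted p = 7.83e-06). As the knockouts were dim, the size depended on the offset, from -3.51 with an offset of 1 to -2.14 with 64.

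Slc38a6 encodes SNAT6, a family member whose substrates are less well known, and whose promoter is printed above. Its signal was 162, 214, 172 and 171 in knockout and 994, 983, 698 and 1098 in wild-type arrays. It fell to 179.8 ± 23.3 in knockout intestine, against 943.2 ± 172 in wild-type (SD, n = 4), and the log2 fold change of -2.28 ± 0.15 SE (adjusted p = 1.7e-06) changed little with the offset (-2.37 to -2.03). A dimmer probe set of the gene gave 24, 24, 20 and 7 in knockout and 39, 40, 23 and 45 in wild-type arrays and was not called (-0.62 ± 0.25 SE, adjusted p = 0.138). Its knockout mean of 18.75 lay below the level of the filter, so it was tested because of its signal in wild-types and adds no support. With the mean of both probe sets the gene had -1.45 and was called.

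Slc38a7 encodes SNAT7, which exports glutamine and asparagine from lysosomes. It gave 136, 150, 142 and 98 in knockout and 354, 321, 218 and 304 in wild-type arrays, with no overlap. It had a log2 fold change of -1.09 ± 0.17 SE (adjusted p = 0.00107), and the calls of Slc38a3, Slc38a6 and Slc38a7 held under all 21 alternatives. Slc38a1, the system A carrier SNAT1, fell less, with 813, 1061, 962 and 857 in knockout and 1260, 1220, 1409 and 1260 in wild-type arrays (-0.48 ± 0.10 SE, adjusted p = 0.00863). Its second probe set was called too (-0.44 ± 0.11, adjusted p = 0.0195), and the call ended with the 3′ to 5′ covariate (adjusted p = 0.26).

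The other Slc38 genes were not called. Slc38a10, an intracellular member, had 0.12 (-0.11 to 0.36), with none of its 6 tested probe sets called. Slc38a5, the system N carrier SNAT5, was dim, with signals of 11 to 44 and 0.05 (-0.57 to 0.66).

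The last called genes were Slc7a4 and Slc43a3. Slc7a4 belongs to the family of basic amino acid carriers by sequence, and its transport activity is not established. It gave 158, 168, 184 and 178 in knockout and 292, 269, 240 and 274 in wild-type arrays, separated, with a log2 fold change of -0.60 ± 0.11 SE (adjusted p = 0.00373). A second tested probe set had -0.45 and was not called (adjusted p = 0.0812), the other one was too dim for the test, and the call ended with the 3′ to 5′ covariate (0.0849). Slc43a3, whose product is now known as a purine nucleobase carrier rather than an amino acid carrier, gave 109, 104, 76 and 87 in knockout and 238, 281, 154 and 253 in wild-type arrays (-1.15 ± 0.18 SE, adjusted p = 0.00123), and its call held under all 21 alternatives.

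By substrate, 7 of 21 neutral carrier genes tested were lower and 1 higher (median log2 fold change -0.13). Of 9 basic carrier genes, 3 were lower (Slc3a1, Slc7a9 and Slc7a4) and none was higher by limma at adjusted p under 0.05 (median -0.16). Beside these counts, 8.5% of all genes tested were lower and 6.6% higher. The basic group includes Slc25a15, the mitochondrial ornithine carrier, which had -0.02 (-0.22 to 0.18). It also holds Slc7a2 (0.35, -0.56 to 1.25) and Slc7a3 (-0.16, -0.71 to 0.40), which were dim or variable, with signals of 4 to 81 and 11 to 43. Slc1a4, Slc36a4 and Slc43a1, all neutral carriers, had 0.15, -0.05 and 0.26 and were not called. Whether apical and basolateral genes, or the substrate classes, differ from each other was not tested.

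Of the 14 called genes, 7 had 1 tested probe set and 7 had several. Among those with several, all tested probe sets were called for 1 (Slc38a1), and 2 of 3 for Slc43a2. No gene had probe sets called in opposite directions.

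Other genes of amino acid transport came from a list of 38 carriers and partners, of which 18 were tested, 4 were lower and 1 higher, with a median of -0.02. The mean log2 signal of these 18 was 6.64 to 6.72 in knockout and 6.85 to 6.93 in wild-type arrays, without overlap (exact two-sided permutation p = 0.0286). For this list and those below, the shares over all genes tested were 8.5% lower and 6.6% higher. Beside Cltrn, the lower genes were Slc66a1, Ctns and Slc25a13. Slc66a1, which exports basic amino acids from lysosomes, gave 100, 138, 206 and 78 in knockout and 744, 784, 467 and 771 in wild-type arrays (-2.32 ± 0.25 SE, adjusted p = 7.54e-05). Ctns, the lysosomal cystine exporter cystinosin, gave 98, 122, 138 and 79 in knockout and 265, 317, 216 and 390 in wild-type arrays (-1.31 ± 0.19 SE, adjusted p = 0.000806). Both separated the groups, as Slc38a7 did. Slc38a9, a lysosomal arginine sensor, had -0.20 (adjusted p = 0.367), and Slc15a4, a lysosomal carrier of histidine and peptides, had -0.12 (adjusted p = 0.578). Slc25a13, the mitochondrial aspartate and glutamate carrier citrin, was lower too (-0.84 ± 0.12 SE, adjusted p = 0.000512).

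Genes of the peptidases that release amino acids and small peptides went both ways. Of 10 tested genes of the brush border and lumen, 5 were higher and 2 lower, with a median of 0.45, and their mean log2 signal overlapped between the genotypes, at 10.26 to 10.85 in knockout and 9.91 to 10.37 in wild-type arrays (exact two-sided permutation p = 0.0857). Mep1a, the alpha subunit of the metalloprotease meprin, had the smallest p and fell, with 529, 648, 650 and 683 in knockout and 2018, 2455, 1609 and 2083 in wild-type arrays (-1.67 ± 0.13 SE, adjusted p = 6.86e-06). Mme, which encodes the endopeptidase neprilysin, was the other lower gene (-0.55 ± 0.15 SE, adjusted p = 0.0303). Dpep1, a dipeptidase, was higher, with 1066, 947, 1371 and 694 in knockout and 253, 313, 194 and 236 in wild-type arrays (1.94 ± 0.19 SE, adjusted p = 4.33e-05). The other higher genes were Anpep (1.19), Xpnpep2 (1.23), Mep1b (0.62) and Enpep (0.26), with adjusted p = 0.000219 to 0.0445. Of 10 cytosolic peptidase genes, 3 were higher and 1 lower, with a median of 0.04. The mean log2 signal of these 10 was 9.86 to 10.12 in knockout and 9.69 to 9.79 in wild-type arrays, without overlap (exact two-sided permutation p = 0.0286). Acy1, an aminoacylase, rose to 1163 ± 259 in knockout intestine, against 320.2 ± 33.9 in wild-type (SD, n = 4), and Pepd, which splits dipeptides ending in proline, also rose (0.99 ± 0.13 SE, adjusted p = 0.000426), as did Npepl1 (0.53 ± 0.14 SE, adjusted p = 0.0271). Lap3, leucine aminopeptidase, fell (-0.47 ± 0.12 SE, adjusted p = 0.0244).

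Genes of the response to amino acid shortage were mixed. Of 25 tested, 4 were higher and 5 lower, with a median of -0.13. The serine synthesis gene Phgdh gave 974, 1233, 1198 and 876 in knockout and 3331, 3275, 3169 and 3059 in wild-type arrays (-1.58 ± 0.11 SE, adjusted p = 2.96e-06), and Psph, a later step, also fell (-0.97 ± 0.12, adjusted p = 0.00025). Cebpb, a transcription factor of the C/EBP family, fell as well, with 444, 424, 443 and 454 in knockout and 928, 931, 746 and 858 in wild-type arrays (-0.94 ± 0.10 SE, adjusted p = 6.29e-05). Shmt2, which passes serine carbon to folate, rose (0.80 ± 0.12, adjusted p = 0.000692). The other called genes of the list were Vldlr (0.91), Nars (0.53) and Gars (0.47), which rose, and Atf5 (-0.61) and Sars (-0.36), which fell (adjusted p = 0.000764 to 0.0277). Among those not called were the regulator Atf4 (0.10), Asns (-0.13), Trib3 (0.80) and Chac1 (-0.17), with adjusted p = 0.113 to 0.7.

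The tissue and the arrays were checked beside these results. By the Plagl2 probe set with the smallest p, the signal was 3 to 11 in knockout and 697 to 824 in wild-type arrays. Of 14 enterocyte markers tested, 2 were higher, Krt20 (log2 fold change 2.55) and Krt8 (0.52), and 2 lower, Krt18 (-1.02) and Cdx1 (-1.01). The mean log2 signal of the 14, in which such opposite changes offset each other, was 11.44 to 11.82 in knockout and 11.41 to 11.69 in wild-type arrays (exact two-sided permutation p = 0.657). That of 8 smooth muscle markers was 9.81 to 10.58 in knockout and 9.51 to 10.22 in wild-type arrays (exact permutation p = 0.0857), and 1 was called, as higher. That of 7 macrophage and leukocyte markers was 6.99 to 7.63 in knockout and 7.77 to 7.92 in wild-type arrays, without overlap (exact permutation p = 0.0286, which is the least that 2 groups of 4 arrays allow). Csf1r (log2 fold change -2.38) and Adgre1 (-0.98) were called as lower. The 5 not called ran from -0.44 (Ptprc) to 0.28 (Lyz2), and each overlapped between the groups. In knockout replicate 4 these 5 lay within or above their wild-type ranges. Lyz2 gave 251 there, against 152 to 190 in wild-type arrays, and Aif1 gave 123, against 93 to 114. The separation of the mean therefore rests on Csf1r and Adgre1, and the mean without Csf1r was not computed. None of the endothelial markers (7 tested) or exocrine pancreas markers (8 tested) was called by limma, and the mean of the pancreas markers ranged from 6.66 to 8.78 in knockout and 6.04 to 8.12 in wild-type arrays. The liver markers (5 tested, 2 lower) ranged from 7.30 to 10.95 in knockout and 8.18 to 8.85 in wild-type arrays, and the red cell markers (2 tested) from 6.47 to 8.62 in knockout and 6.35 to 7.42 in wild-type arrays. The 2 lower liver markers were Ttr (log2 fold change -1.87) and Cps1 (-0.31). In wild-type arrays they gave 4033 to 5856 and 6547 to 7997, where Alb gave 15 to 122, so they need not report liver tissue. Alb (1.92), Apoh (1.38) and Fgb (-0.74) were not called. Xist signals of 1828 and 1410 in knockout replicates 2 and 3, with at most 47 elsewhere, mark these as female, so sex was not balanced. Control probe sets at the 3′ ends of transcripts, set against those at the 5′ ends, had a mean log2 ratio of 0.017 to 0.098 in knockout and -0.055 to 0.00656 in wild-type arrays (exact permutation p = 0.0286). Of 8 enteric neuron and glia markers, 1 was lower. The part of these in the transporter results was not tested beyond the covariate fits given above.

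**Figure D4:**
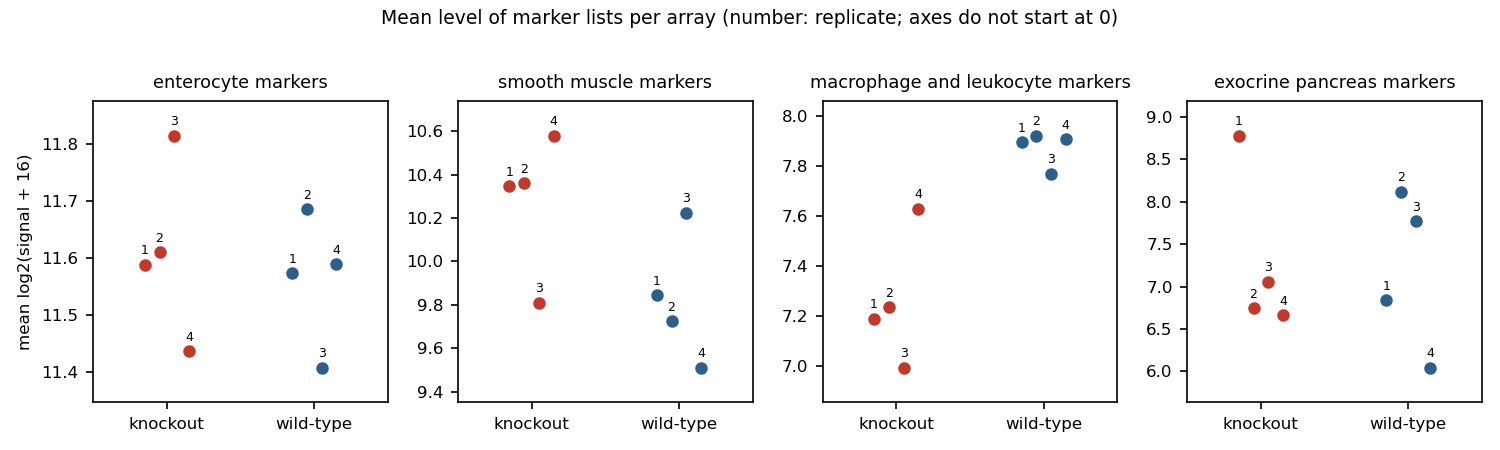
Mean log2(signal + 16) of 4 marker lists in each knockout (red) and wild-type (blue) array, numbered by replicate, on axes that do not start at 0. Enterocyte marker levels overlap between the groups, and pancreas levels scatter within both groups. Macrophage and leukocyte levels do not overlap (6.99 to 7.63 against 7.77 to 7.92), a separation that rests on Csf1r and Adgre1.

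Within each genotype, single arrays stood at the ends of the range more often than others. The fourth knockout was the lowest of its group for 14 of the 35 transporter genes (40%, against 26.7% of all genes tested), among them Slc7a9, Slc6a19, Slc6a20a, Slc43a2 and Slc3a2. It was also the highest of its group for 12 of the 35 (34.3%, against 33.1% of all genes). The third knockout was the lowest for 11 (31.4%, against 37.3% of all genes) and the highest for 12 (34.3%, against 26.2%). The third wild-type was the lowest of its group for 21 of the 35 (60%, against 30.7% of all genes) and the highest for 9 (25.7%, against 34.3% of all genes). By marker levels, the fourth knockout stood apart by its liver signal, with a mean of 10.95 against 7.30 to 8.90 in the other knockouts, and Alb, the albumin gene, at 4646 against 4 to 656. It was also the highest knockout for red cell, smooth muscle, enteric neuron and glia, and macrophage and leukocyte markers, and the lowest for enterocyte and exocrine pancreas markers. The third wild-type was the highest of its group for liver, red cell, smooth muscle, and enteric neuron and glia markers, and the lowest for enterocyte, endothelial, and macrophage and leukocyte markers. Without both of these arrays, 13 transporter genes were lower and 2 higher by limma. The lower genes then included Slc3a2 (adjusted p = 0.0446) and Slc36a1 (0.0389), and no longer Slc7a5 (0.0746). The part of these marker levels in the transporter signals was not tested.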

How the data were processed

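Gene expression was measured on 1 Affymetrix MOE430 2.0 array per sample. The deposited table holds 1 linear signal intensity per probe set and array, with every array at a trimmed mean of 150.05 (2% off each end), so the authors' scaling is in the values. Which algorithm made the signals is not given in the sources used here. Detection calls were not used here. Every value column belongs to a sample.

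Symbols came from GEO's platform annotation (34958 probe sets with 1 symbol, 932 with several, 9211 with none). Of those with 1 symbol, 34754 were found by Entrez ID in RefSeq GRCm38.p6, and 0 changed. After removal of 64 controls, log2(signal + 16) was taken and the 40% of probe sets with the lowest mean were left out (below about 23.0), leaving 27022 for limma 3.58.1 in R 4.3.3 (genotype as the only term, eBayes with trend). In simulated data of this size the fit called 25.8%, 73.1% and 97% of changes of 1.5, 2 and 4-fold, and 5 of 26822 unchanged probe sets. The simulation changed only 66, 67 and 67 probe sets at these sizes, far fewer than were called in the real data. Its noise was independent between probe sets, without differences of tissue make-up between arrays. These rates may therefore not hold for the real data. The number of arrays limits the precision.

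The transporter genes and lists were chosen with earlier results of these data known. Named are every called transporter gene, 10 main carriers of absorption listed by name, Plagl2 and up to 4 called genes of each further list with the smallest p. Further genes of these lists, called (such as Slc6a20b, Mme and the other peptidase genes) or not called (such as Slc38a9 and Atf4), were picked with values in view. Measures with 1 value per array were tested by exact two-sided permutation. Alternatives changed the filter, normalization, offset, block, weights, trend, covariates, probe set rule and arrays. Deviations of same-numbered arrays from their group means correlated at -0.274 to -0.0111, which gives no sign that the numbers pair the samples. With 4 arrays per group, and array differences shared by many genes, this cannot exclude a pairing.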

Additional observations from a re-analysis of the deposited data

Results flagged for a closer look

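In all, 3 signals of wild-type replicate 3 lay far from the other wild-types, the gap to the nearest exceeding Dixon's limit for 4 samples. As linear signals they were Slc3a1 (1585, against 2623 to 2876 in the others), Slc15a2 by its brightest probe set (229, against 139 to 151) and Slc38a3 (200, against 400 to 460). For Slc3a1 and Slc38a3 the value lay toward the knockouts, and for Slc15a2 away from them. Of 70 groups looked at, 3 stood out, and chance gives about 1 in 20. Without that array the log2 fold changes were -1.23 for Slc3a1, -1.39 for Slc15a2 and -3.24 for Slc38a3, all called.

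A probe set of Slc1a1 that was too dim for the test gave 25, 23, 21 and 39 in knockout and 7, 11, 2 and 3 in wild-type arrays, with means of 27 in knockout and 5.75 in wild-type intestine and no overlap.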

How the results depend on the processing

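The number of transporter genes called as lower was 8 to 13 over the 21 alternatives (12 as reported), and 6 of the 14 called genes kept their call in every one: Slc6a20a, Slc7a9, Slc38a3, Slc38a6, Slc38a7 and Slc43a3. None of the 14 called genes changed sign in these alternatives; 11 genes that were not called did in some, the lowest adjusted p there being 0.685. The number called as higher was 1 with the lowest 60% left out, with the 3′ to 5′ covariate, with Xist adjusted for and among the 6 arrays lacking Xist signal, Slc1a1 being lost in each (with the stricter filter it was not tested), and 2 to 3 with single arrays left out. With the replicate block, 2 transporter genes were higher and 10 lower, though the labels do not say that the numbers pair the samples. Over the whole array, 1427 probe sets were higher and 1811 lower. These counts were 751 and 1164 with the replicate block, and 471 and 919 with the 3′ to 5′ covariate. The number higher was 2631 with array weights, 755 with the Xist covariate and 820 among the arrays lacking Xist signal. With single arrays left out it was 880 (without knockout replicate 2) to 2082 (without wild-type replicate 3), and 918 without wild-type replicate 1. Medians of the apical, basolateral, neutral and basic genes kept their sign under offsets of 1 and 64 and under quantile normalization. The cause of these changes was not tested. Leaving out knockout replicate 4 and wild-type replicate 3 together was chosen after seeing the data. Changes of dim genes (Slc1a1, Slc7a5, Slc38a3) are limited by signal over background.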
